A study of Mus musculus with 21 samples.

Results

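Transcripts of 10 enzymes of glycolysis were followed in the neocortex of rNLS8 mice, a model of TDP-43 disease. The 10 genes were taken by symbol from the deposited count table (Hk1, Hk2, Pfkm, Pfkl, Pfkp, Aldoa, Pgk1, Eno2, Pkm and Ldha), which holds 48474 rows, and all 10 were among the 19052 genes with enough counts to be tested. The TG mice carry a human TDP-43 without its nuclear localization signal (TDP-43ΔNLS) under a doxycycline-repressible promoter, driven by a transactivator under the neurofilament heavy chain promoter, so that expression is almost exclusively neuronal. The controls, labelled WT, were monogenic littermates, in which TDP-43ΔNLS cannot be induced. Mice of both genotypes received 350 µg of the same non-targeting antisense oligonucleotide in 10 µL into the cerebral ventricle at 17 to 19 weeks of age, stayed on doxycycline food (200 mg/kg) for a further 2 weeks and were killed 3 weeks after doxycycline was withdrawn. Every group difference below is therefore one between oligonucleotide-injected mice. The 21 libraries, 1 per mouse, came from 2 cohorts labelled batch A (4 WT and 3 TG mice) and batch B (7 WT and 7 TG mice), and sex was not given in the labels.

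Glycolysis splits glucose into pyruvate in the cytosol and yields ATP at the phosphoglycerate kinase and pyruvate kinase steps. Most steps are served by isoenzymes from separate genes, whose mix differs between neurons, astrocytes and other cells of the brain. Lactate dehydrogenase then converts pyruvate to lactate, which regenerates the NAD+ that glycolysis consumes, and astrocytes are known to release lactate that neurons can oxidize.

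Ldha and Pgk1 showed the lowest transcript levels in TG relative to WT mice. The level of Ldha fell by 38.4% and that of Pgk1 fell by 32.0%, and for both genes every TG mouse lay below every WT mouse. Aldoa, Pfkl, Hk1 and Pfkp fell too, by smaller amounts: Aldoa fell by 15.3%, Pfkl fell by 13.9%, Hk1 fell by 12.5% and Pfkp fell by 10.2%. Hk2, by far the least abundant of the 10, was 22.4% higher. For Pfkm, Eno2 and Pkm the difference did not pass the test. In all, 6 of the 10 genes were lower and 1 was higher in TG mice, where called means an adjusted p under 0.05 in edgeR's quasi-likelihood test with batch as covariate and Benjamini-Hochberg adjustment over all genes tested. Changes were common in this tissue, since 43.6% of all genes tested were called (21.2% lower and 22.4% higher in TG mice). The median log2 fold change of the 10 genes was -0.17, beside -0.00185 over all genes tested. Scaled by library size alone, without TMM, the median over all genes moved to 0.0758 and the share of calls that were higher in TG mice from 51.3% to 68%. Under that scaling 8732 of the 19052 genes tested were called, beside 8303 with TMM. Of the 10 enzymes 5 were called, since Hk1 (log2 fold change -0.12, adjusted p = 0.0707, edgeR) and Pfkp (-0.08, adjusted p = 0.162, edgeR) no longer passed.

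**Figure D1:**
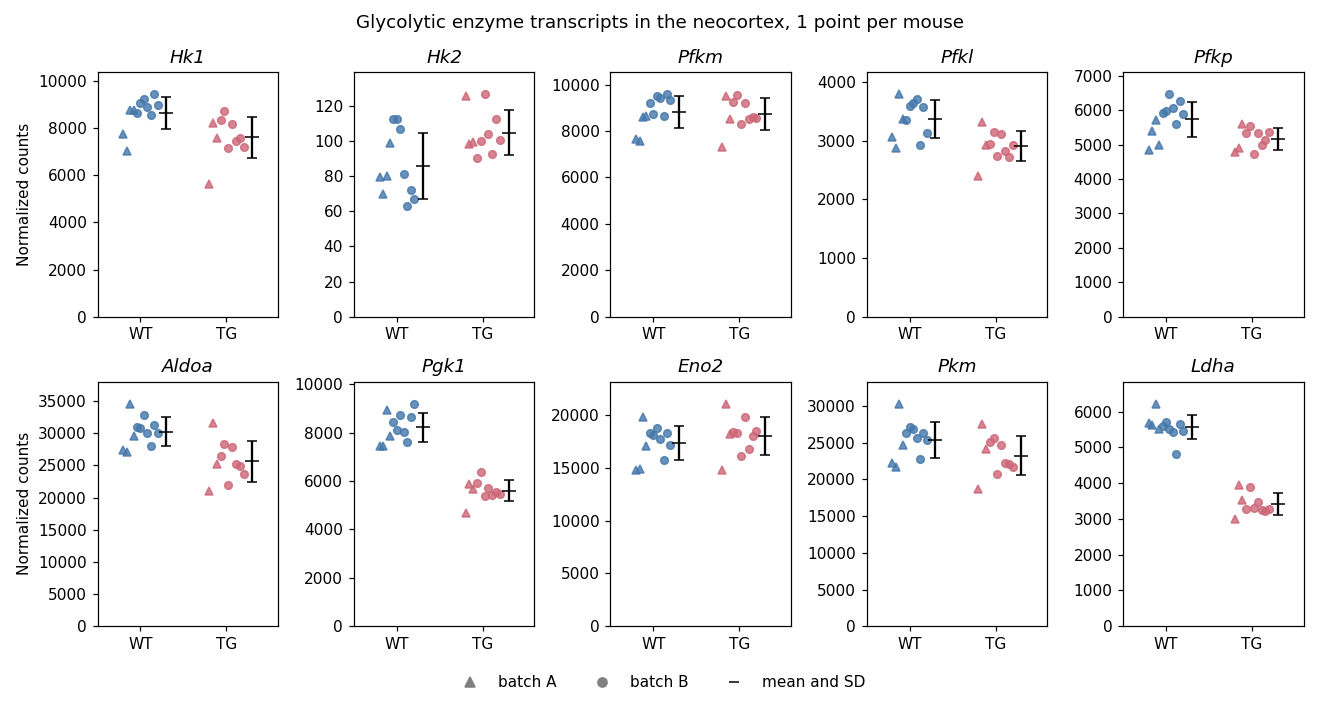
Normalized counts (vertical axis, linear from 0) of the 10 enzymes, 1 point per mouse, for 11 WT and 10 TG mice. Triangles are batch A, circles batch B, and the bars give the mean and SD of each group. The TG points lie wholly below the WT points for Pgk1 and Ldha, and the groups overlap for the other 8 genes.

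Promoter sequence is shown for the genes with the largest differences, Ldha and Pgk1, and for Hk2, which was higher, and Eno2, which was not called. Each run is the 250 bases before a RefSeq transcription start on GRCm38.p6, written 5′ to 3′ on the gene's strand. Capitals mark ACGTG or GCGTG on either strand, the cores that hypoxia-inducible factors are known to bind. The sequence CACGTG, an E-box bound by basic helix-loop-helix factors such as MYC and USF, contains ACGTG on both strands and is therefore also in capitals. Ldha has 2 RefSeq starts with an entry, at chr7:46845554-46845803 and chr7:46846832-46847081 on the plus strand. The Pgk1 window is chrX:106186850-106187099 on the plus strand, the Hk2 window chr6:82774455-82774704 and the Eno2 window chr6:124769674-124769923, both on the minus strand.
Ldha, upstream start: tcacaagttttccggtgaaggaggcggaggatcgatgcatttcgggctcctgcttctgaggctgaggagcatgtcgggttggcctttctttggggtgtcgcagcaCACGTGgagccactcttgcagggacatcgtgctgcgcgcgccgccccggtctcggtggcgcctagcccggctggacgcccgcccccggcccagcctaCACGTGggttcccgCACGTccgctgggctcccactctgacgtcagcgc
Ldha, downstream start: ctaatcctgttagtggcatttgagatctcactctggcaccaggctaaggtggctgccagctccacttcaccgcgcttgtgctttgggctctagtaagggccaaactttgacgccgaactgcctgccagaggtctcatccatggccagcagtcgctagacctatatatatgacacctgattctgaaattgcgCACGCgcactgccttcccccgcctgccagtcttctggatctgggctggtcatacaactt
Pgk1: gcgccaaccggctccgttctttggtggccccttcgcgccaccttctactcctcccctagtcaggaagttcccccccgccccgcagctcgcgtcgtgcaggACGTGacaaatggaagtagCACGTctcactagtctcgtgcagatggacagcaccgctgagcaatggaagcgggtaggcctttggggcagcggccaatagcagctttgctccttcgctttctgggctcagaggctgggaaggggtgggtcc
Hk2: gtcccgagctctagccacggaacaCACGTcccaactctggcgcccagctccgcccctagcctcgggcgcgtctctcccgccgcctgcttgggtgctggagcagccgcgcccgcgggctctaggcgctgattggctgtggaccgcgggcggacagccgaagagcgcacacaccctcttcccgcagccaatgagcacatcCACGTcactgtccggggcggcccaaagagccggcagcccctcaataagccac
Eno2: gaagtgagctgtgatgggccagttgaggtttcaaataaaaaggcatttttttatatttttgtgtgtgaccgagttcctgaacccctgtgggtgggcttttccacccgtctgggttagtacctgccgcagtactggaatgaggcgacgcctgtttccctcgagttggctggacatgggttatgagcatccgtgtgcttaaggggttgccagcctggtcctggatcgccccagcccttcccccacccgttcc

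The upstream Ldha window held 3 separate stretches with a core, at 145, 48 and 34 bases before the start, and 2 of them were CACGTG. The downstream Ldha window held 1, at 59 bases. Pgk1 had 2 cores, at 150 and 131 bases, and Hk2 also had 2, at 226 and 52 bases, whereas these letters were not in the Eno2 window. All 10 enzymes had an entry, with 18 start sites in all, and 13 of these 18 windows, from 9 of the 10 genes, held ACGTG or GCGTG. For Pfkm and for Aldoa, 2 overlapping windows shared a core, which was thus counted in both. The shares over all genes were computed per window and not per gene, and a gene with more starts has more windows. Over all 32851 windows of the same length in the table, 38.6% held either core, 16.6% held ACGTG, 28.2% held GCGTG and 6.02% held CACGTG. Cores therefore stood before genes that were lower, higher and not called, and a match describes the letters only.

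Total counts per library lay between 20700912 and 22263809, so that 3 counts corresponded to 0.135 to 0.145 CPM (counts relative to the library's total). The sums of markers below are CPM without TMM, and the isoenzyme ratios were taken from counts without TMM. All other levels below are counts normalized for library size and composition (TMM) and given for a library of average size. The cortical marker Tbr1 (2248 to 2902 in WT and 2106 to 2992 in TG mice) was detected in every library. Of 9 neuron markers, 6 were lower in TG mice and none was higher, and their summed level was 6700 to 8000 CPM in WT and 5460 to 6440 in TG mice. Of 8 astrocyte markers, 6 were lower and none was higher, with sums of 4060 to 5220 in WT and 3080 to 4470 in TG mice. Of 8 microglia markers, 5 were higher and 1 was lower, with sums of 355 to 399 and 393 to 594. No oligodendrocyte marker of 8 was called, and the sums overlapped (4280 to 7360 and 4310 to 7690). No marker of these 4 cell types was at 0 in any library. Of 7 endothelial markers 1 was higher and 1 lower, of 4 mural cell markers 1 was lower, and none of the markers of oligodendrocyte precursors (4), blood (5) or choroid plexus and ependyma (4) was called. The part of these shifts in the differences of the glycolytic enzymes was not tested, and in bulk tissue fewer cells of a type and less RNA per cell cannot be told apart.

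The hexokinases phosphorylate glucose and so trap it in the cell. Hk1 (chr10:62268855-62379920, minus strand, GRCm38 as for all genes below), the constitutive brain isoenzyme that docks to the mitochondrial outer membrane, had 8662 ± 695 normalized counts in WT (SD, n = 11, lowest 7022, median 8804, highest 9460) and 7624 ± 863 in TG mice (SD, n = 10, lowest 5656, median 7595, highest 8721). All 10 TG mice lay below the WT median, but only 1 lay below every WT mouse. Hk1 had a log2 fold change of -0.19 (SE 0.0569, adjusted p = 0.00801, edgeR).

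Hk2 (chr6:82725025-82774454, minus strand), the inducible hexokinase of muscle and fat, is scarce in the cortex. Its normalized counts were 86.0 ± 18.6 in WT (SD, n = 11, lowest 63.2, median 80.4, highest 113) and 105 ± 12.8 in TG mice (SD, n = 10, lowest 90.4, median 100.0, highest 127). All 10 TG mice lay above the WT median and 3 lay above every WT mouse. Hk2 had a log2 fold change of 0.29 (SE 0.109, adjusted p = 0.0332, edgeR), from raw counts of 59 to 134 per library. Of the 21 fits that left out 1 mouse, 8 lost this call, with an adjusted p of 0.0782 at the largest, without TG mouse T60303.

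The phosphofructokinases catalyse the committed step and form tetramers from 3 subunits, muscle (Pfkm), liver (Pfkl) and platelet (Pfkp), all of which are made in brain. Pfkm (chr15:98092589-98132447, plus strand) was the most abundant, with 8811 ± 693 normalized counts in WT (SD, n = 11, lowest 7585, median 8735, highest 9595) and 8738 ± 679 in TG mice (SD, n = 10, lowest 7298, median 8582, highest 9547). The groups overlapped over almost their whole ranges, with a log2 fold change of -0.02 (95% interval -0.112 to 0.076, adjusted p = 0.784, edgeR). Pfkl (chr10:77986947-78009807, minus strand) had 3369 ± 327 in WT (SD, n = 11, lowest 2883, median 3365, highest 3797) and 2906 ± 259 in TG mice (SD, n = 10, lowest 2393, median 2929, highest 3313). All 10 TG mice were below the WT median and 4 below every WT mouse, with a log2 fold change of -0.22 (SE 0.0585, adjusted p = 0.00414, edgeR). Within batch A, TG mouse T61340 (3313) lay above the WT median of that batch (3211). Pfkp (chr13:6579874-6649060, minus strand) had 5739 ± 504 in WT (SD, n = 11, lowest 4831, median 5881, highest 6469) and 5171 ± 316 in TG mice (SD, n = 10, lowest 4718, median 5230, highest 5608). Here too all 10 TG mice lay below the WT median, 2 of them below every WT mouse, and the log2 fold change was -0.155 (SE 0.0446, adjusted p = 0.00654, edgeR). The WT median of Pfkp was 5194 in batch A and 5976 in batch B, and TG mouse T61342 of batch A (5608) lay above the former.

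Aldolase A (Aldoa, chr7:126795234-126800994, minus strand) cleaves fructose bisphosphate into both triose phosphates. It was the most abundant of the 10, also per length, with 30213 ± 2275 normalized counts in WT (SD, n = 11, lowest 27016, median 30013, highest 34580) and 25611 ± 3129 in TG mice (SD, n = 10, lowest 21016, median 25209, highest 31557). Of the 10 TG mice, 7 lay below every WT mouse, while TG mouse T61340 lay above the WT median. Aldoa had a log2 fold change of -0.24 (SE 0.0621, adjusted p = 0.00295, edgeR). Aldoa overlaps Fam57b on the opposite strand, and the strand setting of the counting was not given in the sources used here.

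Pgk1 (chrX:106187100-106203699, plus strand) encodes phosphoglycerate kinase, an ATP-forming enzyme of the pathway. It had 8217 ± 608 normalized counts in WT (SD, n = 11, lowest 7434, median 8096, highest 9195) and 5609 ± 443 in TG mice (SD, n = 10, lowest 4688, median 5605, highest 6392). In batch A the 4 WT mice had 8932, 7857, 7443 and 7434, and the 3 TG mice had 5865, 5672 and 4688. In batch B the 7 WT mice ranged from 7617 to 9195 with a median of 8422, and the 7 TG mice from 5383 to 6392 with a median of 5538. The groups were separate in both cohorts, and the log2 fold change was -0.56 (SE 0.0484, adjusted p = 1.99e-09, edgeR). Of all genes tested, 3.67% had every TG mouse below every WT mouse, and among the 10 enzymes Pgk1 and Ldha did. Pgk1-rs7, a row for a processed copy of Pgk1 that was looked up after the values had been seen, held 21.3% as many counts as Pgk1 and fell likewise (1788 ± 170 in 11 WT and 1165 ± 143 in 10 TG mice, SD, log2 fold change -0.61, adjusted p = 6.07e-09, edgeR). Reads of the copy and of its parent may be shared, and with both rows added up the log2 fold change was -0.57 (adjusted p = 2.36e-09, edgeR).

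Enolase forms phosphoenolpyruvate, and Eno2 (chr6:124760053-124769673, minus strand) encodes its neuron-specific subunit. Eno2 had 17324 ± 1602 normalized counts in WT (SD, n = 11, lowest 14806, median 17731, highest 19837) and 17987 ± 1771 in TG mice (SD, n = 10, lowest 14784, median 18273, highest 21048). The groups overlapped throughout, with a log2 fold change of 0.05 (95% interval -0.071 to 0.175, adjusted p = 0.516, edgeR). Pkm (chr9:59656576-59679372, plus strand) encodes pyruvate kinase M, whose splice forms are summed in this row. It had 25386 ± 2487 in WT (SD, n = 11, lowest 21724, median 25580, highest 30302) and 23250 ± 2624 in TG mice (SD, n = 10, lowest 18751, median 23125, highest 27518). The log2 fold change of -0.13 (95% interval -0.262 to 0.006, adjusted p = 0.117, edgeR) was not called, but it was without TG mouse T61340 (-0.17, adjusted p = 0.0304, edgeR).

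Ldha (chr7:46842274-46855627, plus strand) encodes the A subunit of lactate dehydrogenase, the form that favours lactate production. It had 5571 ± 328 normalized counts in WT (SD, n = 11, lowest 4815, median 5605, highest 6222) and 3423 ± 299 in TG mice (SD, n = 10, lowest 3005, median 3305, highest 3949). In batch A the 4 WT mice had 6222, 5681, 5637 and 5504, and the 3 TG mice had 3949, 3536 and 3005. In batch B the 7 WT mice ranged from 4815 to 5715 with a median of 5520, and the 7 TG mice from 3219 to 3890 with a median of 3291. The groups did not overlap in either cohort, and the log2 fold change was -0.70 (SE 0.0475, adjusted p = 2.83e-11, edgeR). By adjusted p, Ldha had rank 122 and Pgk1 rank 314 among the genes tested. Only 2.28% of genes tested had a log2 fold change as low as that of Ldha or lower, and 4.34% for Pgk1.

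Per length of the principal transcript, WT levels ran in the order Aldoa (19995 ± 1506 normalized counts per kb, SD, n = 11), Pkm (10438 ± 1022), Eno2 (6198 ± 573), Pgk1 (4503 ± 333), Ldha (3155 ± 186), Pfkm (3060 ± 241), Hk1 (2249 ± 181), Pfkp (1384 ± 122), Pfkl (903 ± 87.7) and Hk2 (15.6 ± 3.38). Of neighbours in this order, Ldha and Pfkm differed by less than their SDs. In TG mice Pgk1 (3073 ± 243 normalized counts per kb, SD, n = 10) came to lie beside Pfkm (3035 ± 236), and Ldha (1938 ± 169) beside Hk1 (1980 ± 224), and neither pair differed by more than its SDs. Ldha thus moved from above Pfkm to just below Hk1, and the other 9 genes kept their order.

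**Figure D2:**
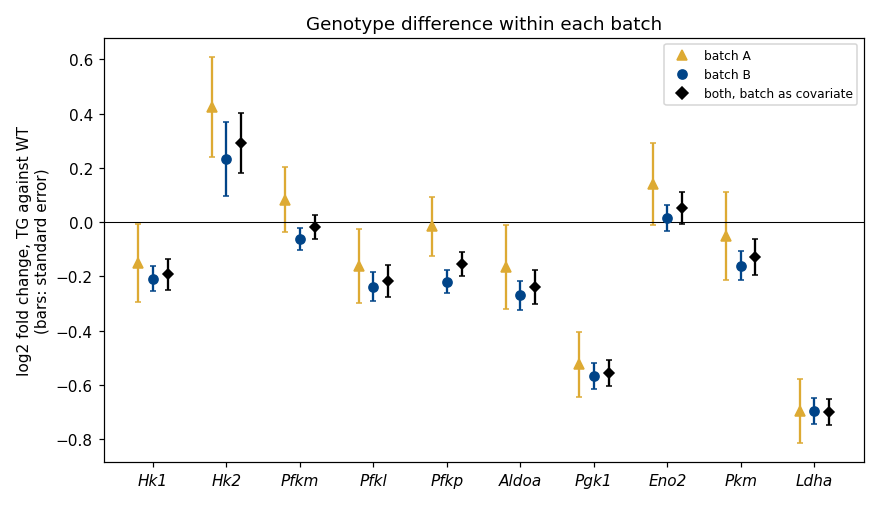
The log2 fold change of TG against WT mice (vertical axis) for each of the 10 enzymes in batch A alone (triangles, 4 WT and 3 TG mice), in batch B alone (circles, 7 and 7 mice) and over both with batch as covariate (diamonds), with bars for the standard error. The Pgk1 and Ldha estimates lie close together in both batches, and the bars are wider in batch A.

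The cohorts were also compared separately. In batch A alone Pgk1 (log2 fold change -0.52, adjusted p = 0.0192, edgeR) and Ldha (-0.695, adjusted p = 0.00434, edgeR) were called, 2 of the 10 enzymes, where 11.8% of all genes tested were. In batch B alone 7 were called, where 39.1% of all genes were: Hk1, Pfkl, Pfkp, Aldoa, Pgk1, Pkm and Ldha, all lower in TG mice. Hk2 was above 0 in both cohorts (0.42 in A and 0.23 in B on the log2 scale) and called in neither (adjusted p = 0.159 and 0.195, edgeR). Pfkp was close to 0 in batch A (-0.015, adjusted p = 0.952, edgeR) and lower in batch B (-0.22, adjusted p = 0.000339, edgeR). A test of the difference itself, the interaction of genotype and batch, called none of the 19537 genes tested (0%, edgeR), with 1095 at an unadjusted p under 0.05. Among the 10 enzymes its smallest unadjusted p was that of Pfkp (0.0716, edgeR across all genes). One TG mouse of batch A, T60303, had the lowest TG value for 8 of the 10 enzymes, and TG mouse T61340 of the same cohort the highest for 5. In mouse T61340 the deviation of a gene from the other mice of the group also went with its transcript length (Spearman's rho -0.489 across 16713 genes, beside -0.194 to 0.304 in the other mice), and the part of this in its high values was not tested. With both mice left out, 7778 genes in all were called, beside 8303 with every mouse. Of the 10 enzymes 6 were called, Hk2 being the one lost (log2 fold change 0.25, adjusted p = 0.107, edgeR).

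Because 2 transcripts of the same library share its scaling, isoenzymes were also set against each other within each mouse. Of 7 ratios, 6 differed between genotypes in an exact permutation test of the genotype labels within batch, two-sided, adjusted over the 7. How often the ratio of other pairs of genes would differ was not computed, and 43.6% of all genes tested were called. In batch B alone the same 6 ratios were called. In batch A alone none was, but the smallest possible unadjusted p there was 0.0286 (exact permutation). After adjustment a ratio at that limit passes only if most of the others reach it too. The limit was reached by Hk2 to Hk1, Pfkl to Pfkm, Eno1 to Eno2 and Ldhb to Ldha (adjusted p = 0.05, exact permutation). The mean Eno1 to Eno2 ratio of counts was 0.754 ± 0.0302 in WT (SD, n = 11) and 0.625 ± 0.0464 in TG mice (SD, n = 10), and all 10 TG mice lay below every WT mouse (log2 difference -0.27, exact permutation p = 8.33e-06, the smallest that the design can give, adjusted p = 2.91e-05). Eno1 encodes the ubiquitous enolase subunit, which glia use, and Eno2 the neuronal one. The Ldhb to Ldha ratio was 1.68 ± 0.112 in WT and 2.01 ± 0.143 in TG mice, above every WT mouse in 9 of 10 TG mice (log2 difference 0.25, exact permutation p = 8.33e-06, adjusted p = 2.91e-05). Ldhb, the subunit that favours lactate oxidation, fell itself (log2 fold change -0.45, adjusted p = 6.73e-08, edgeR), but less than Ldha.

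The Pfkl to Pfkm ratio was 0.383 ± 0.0308 in 11 WT and 0.332 ± 0.0105 in 10 TG mice (SD, log2 difference -0.195, exact permutation p = 7.49e-05, adjusted p = 0.000175), and 6 TG mice lay below every WT mouse. The Pfkp to Pfkm ratio was 0.652 ± 0.0346 and 0.594 ± 0.0428 (log2 difference -0.135, exact permutation p = 0.00385, adjusted p = 0.0045), with 4 TG mice below every WT mouse. As a difference of medians it was not called (-0.10, adjusted p = 0.181, exact permutation). Pfkp and Pfkl, the subunits that both fell, had a ratio of 1.71 ± 0.15 in WT and 1.79 ± 0.14 in TG mice that was not called (log2 difference 0.06, exact permutation p = 0.273, adjusted p = 0.273). The phosphofructokinase transcripts, per length, were thus 57.2% ± 1.21 Pfkm, 25.9% ± 1.02 Pfkp and 16.9% ± 1.11 Pfkl in WT (SD, n = 11), and 59.9% ± 1.08, 24.7% ± 1.35 and 15.4% ± 0.513 in TG mice (SD, n = 10).

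The Hk2 to Hk1 ratio rose from 0.01 ± 0.002 to 0.0142 ± 0.00349 (log2 difference 0.51, exact permutation p = 0.000916, adjusted p = 0.0016), with 5 of 10 TG mice above every WT mouse. Per length, Hk2 made up 0.665% ± 0.134 of hexokinase transcripts in WT (SD, n = 11) and 0.935% ± 0.22 in TG mice (SD, n = 10), and Hk1 95.9% ± 0.597 and 94.7% ± 0.899. Hk2 thus stayed a minor form in both genotypes. The Aldoc to Aldoa ratio was 0.668 ± 0.1 in WT and 0.784 ± 0.124 in TG mice (log2 difference 0.245, exact permutation p = 0.00177, adjusted p = 0.00248), and only 2 TG mice lay above every WT mouse. Aldoc, the aldolase of astrocytes and Purkinje cells, had itself a log2 fold change of 0.00 (adjusted p = 0.967, edgeR).

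**Figure D3:**
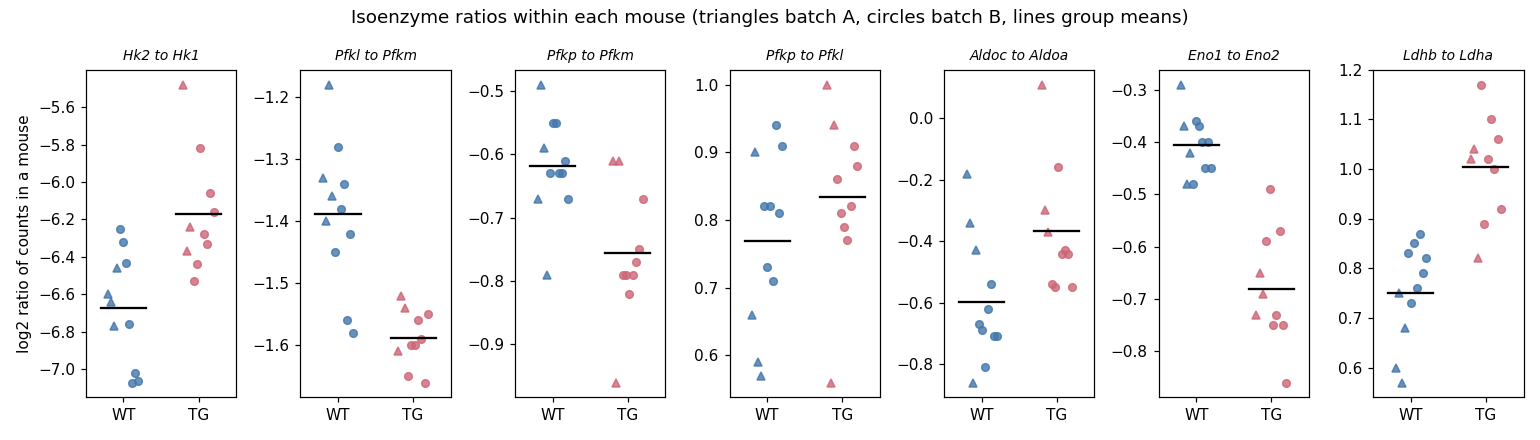
Log2 ratio of the counts of 2 isoenzymes in the same mouse (vertical axes, scaled separately), 1 point per mouse, triangles for batch A and circles for batch B, with lines at the group means. The TG points lie wholly below the WT points for Eno1 to Eno2, and 9 of 10 lie above them for Ldhb to Ldha, while the groups overlap for Pfkp to Pfkl.

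The enzymes at the steps between, and the remaining isoenzymes, were taken from a list of 21 genes, of which 17 were tested. Of these 17, 7 were lower and 3 were higher in TG mice, with a median log2 fold change of -0.01. Downstream of Pgk1, phosphoglycerate mutase Pgam1 fell (9838 ± 629 normalized counts in 11 WT and 8038 ± 670 in 10 TG mice, SD, log2 fold change -0.29, adjusted p = 2.85e-05, edgeR), as did its scarce muscle form Pgam2 (-0.55, adjusted p = 0.00196) and Bpgm, which makes the bisphosphoglycerate that Pgam enzymes need (-0.16, adjusted p = 0.00136). The enolase Eno1 fell (-0.22, adjusted p = 0.00985), with its intronless copy Eno1b (-0.26, adjusted p = 0.00364, which may share reads with it) and the sperm enolase Eno4 (-0.30, adjusted p = 0.0183). Upstream, Gpi1, which interconverts glucose and fructose phosphates, rose (10769 ± 685 in 11 WT and 11833 ± 1200 in 10 TG mice, SD, log2 fold change 0.13, adjusted p = 0.0442, edgeR), and so did the ADP-dependent glucokinase Adpgk (0.24, adjusted p = 0.00155) and Hk3, the hexokinase of myeloid cells (0.40, adjusted p = 0.0345). Gapdh, often used as a reference transcript, had 8442 ± 572 normalized counts in 11 WT and 8377 ± 1034 in 10 TG mice (SD, log2 fold change -0.01, adjusted p = 0.912, edgeR). Triosephosphate isomerase Tpi1 was not called either (-0.13, adjusted p = 0.0834, edgeR). Hkdc1 and Eno3 were not called.

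**Figure D4:**
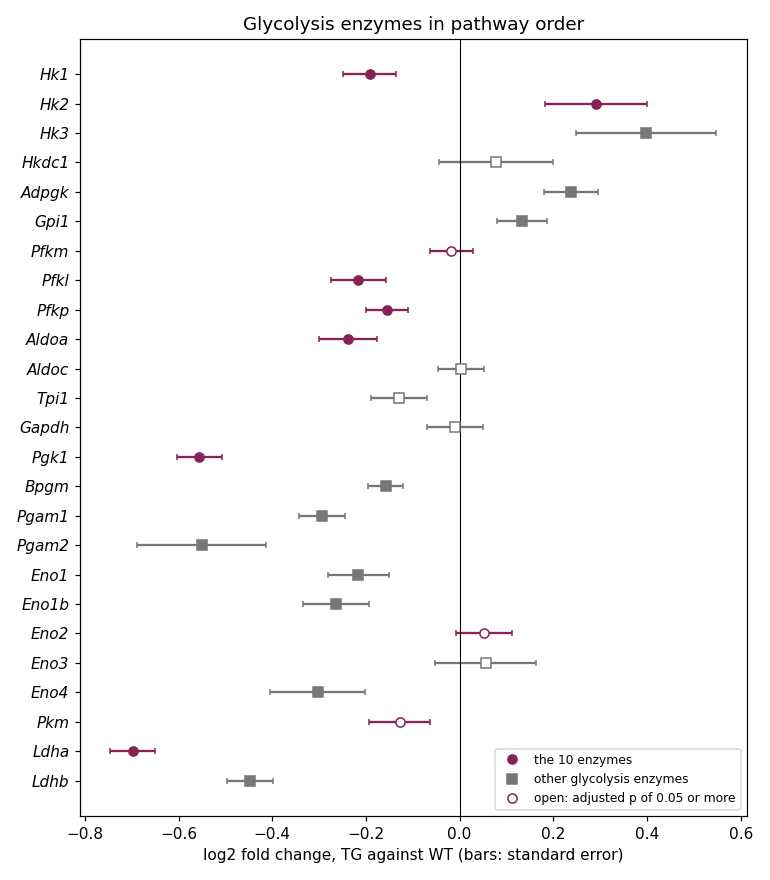
The log2 fold change of TG against WT mice (horizontal axis, bars for the standard error) of the glycolysis enzymes named in the text, in the order of the pathway from top to bottom. Circles are the 10 enzymes, squares the others, and filled symbols have an adjusted p under 0.05. Of the 27 enzymes tested, 13 are lower and 4 are higher in TG mice, and the lowest values stand at Ldha, Pgk1 and Pgam2.

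In neighbouring pathways, 12 genes of glucose and lactate transport included 5 that were higher and 4 that were lower in TG mice. Among them the lactate carriers Slc16a7, of neurons (log2 fold change -0.49, adjusted p = 0.000302, edgeR), and Slc16a3, of glycolytic cells (-0.48, adjusted p = 0.00133, edgeR), fell. The lysosomal hexose transporter Slc2a6 rose (0.39, adjusted p = 6.73e-05, edgeR), and Slc2a13, a proton-coupled inositol carrier, fell (-0.31, adjusted p = 0.000864, edgeR). Of 20 regulators of glycolysis tested, 3 were higher and 4 lower. Egln1, the oxygen-sensing prolyl hydroxylase that marks hypoxia-inducible factors for decay, fell from 2061 ± 147 in 11 WT to 1558 ± 75.4 normalized counts in 10 TG mice (SD, -0.39, adjusted p = 3.92e-09, edgeR), and Vhl, the ubiquitin ligase subunit of the same route, fell too (-0.27, adjusted p = 5.63e-06, edgeR). Arrdc4, an arrestin that limits glucose uptake, rose (0.58, adjusted p = 3.43e-08, edgeR), as did Mlxip, a glucose-sensing transcription factor (0.41, adjusted p = 4.16e-05, edgeR). Of 13 hypoxia-inducible genes 2 were higher and 2 lower, so that most of the list was not called. P4ha1, a collagen prolyl hydroxylase (-0.24, adjusted p = 0.00107, edgeR), and Pdk1, a kinase that inhibits pyruvate dehydrogenase (-0.18, adjusted p = 0.0111, edgeR), fell. The glucose transporter Slc2a1 (0.18, adjusted p = 0.0261, edgeR) and the carbonic anhydrase Car9 rose, the latter at few counts (6.89 ± 3.84 in 11 WT and 13.8 ± 3.88 in 10 TG mice, SD, log2 fold change 0.99, adjusted p = 0.00364, edgeR).

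The pyruvate dehydrogenase complex carries pyruvate into the citric acid cycle. Of its 15 genes, regulators and carriers included, 6 were lower and 4 higher in TG mice. The subunits of its first enzyme, Pdha1 (log2 fold change -0.31, adjusted p = 5.37e-06, edgeR) and Pdhb (-0.38, adjusted p = 2.56e-07, edgeR) fell with the activating phosphatase Pdp1 (3044 ± 374 in 11 WT and 1937 ± 302 normalized counts in 10 TG mice, SD, -0.65, adjusted p = 5.51e-07, edgeR), whereas pyruvate carboxylase Pcx, an astrocyte enzyme, rose (0.29, adjusted p = 4.11e-06, edgeR). Of 20 glycogen genes, 7 were lower and 1 higher. Pgm2l1, a glucose bisphosphate synthase of brain, fell from 9034 ± 1004 in 11 WT to 4851 ± 867 normalized counts in 10 TG mice (SD, -0.90, adjusted p = 1.49e-08, edgeR), with the glycogen phosphatase laforin Epm2a (-0.34, adjusted p = 1.38e-07, edgeR) and the phosphorylase kinase subunit Phkb (-0.43, adjusted p = 3.62e-06, edgeR).

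Branches that leave glycolysis moved in both directions. Of 9 genes of the glycerol and serine branches tested, 4 were higher and 3 lower in TG mice. Shmt2, the mitochondrial serine hydroxymethyltransferase, rose from 339 ± 30.5 in 11 WT to 757 ± 110 normalized counts in 10 TG mice (SD, log2 fold change 1.16, adjusted p = 3.25e-12, edgeR), its cytosolic counterpart Shmt1 from 21.7 ± 5.14 to 76.7 ± 16.2 (1.82, adjusted p = 3.23e-10, edgeR), and Psph, the last enzyme of serine synthesis, also rose (0.61, adjusted p = 1.2e-08, edgeR). Gpd2, the mitochondrial glycerophosphate dehydrogenase that takes reducing equivalents from cytosolic NADH, fell (2996 ± 225 in 11 WT and 1831 ± 176 in 10 TG mice, SD, -0.71, adjusted p = 3.29e-10, edgeR). Of 10 pentose phosphate genes tested, 3 were higher and 2 lower, and Taldo1 (-0.325, adjusted p = 5.53e-05, edgeR) and Prps2 (-0.39, adjusted p = 1.2e-05, edgeR) fell while Prps1 (0.24, adjusted p = 0.000446, edgeR) and Pgls (0.29, adjusted p = 0.00116, edgeR) rose. Over all neighbouring lists together, the remaining isoenzymes included, 58 of 113 tested genes were called, beside 43.6% of all genes tested.

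**Figure D5:**
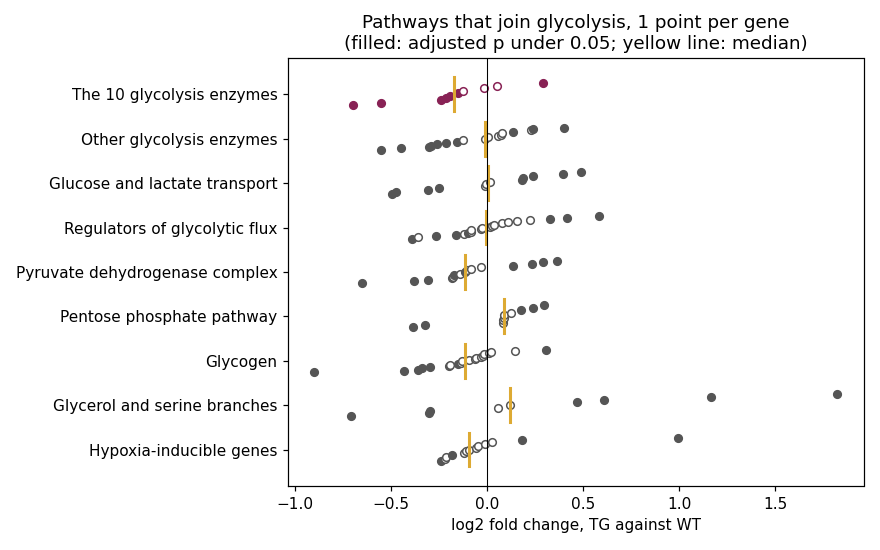
The log2 fold change of TG against WT mice (horizontal axis), 1 point per gene, for the 10 glycolysis enzymes and 8 lists of related genes. Filled points have an adjusted p under 0.05 and the yellow line marks the median of each list, which is -0.17 for the 10 enzymes and between -0.12 and 0.12 for the others.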

How the data were processed

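RNA from the neocortex of 21 mice was sequenced as paired-end mRNA libraries, and the authors deposited 1 table of raw counts per gene symbol and library. The labels name the tissue as neocortex and the study's methods as brain cortex, whereas a legend of the study names the hippocampus for rNLS8 mice in these numbers. The submitters' processing notes list mm10, HISAT, HISAT2, Bowtie, Bowtie2 and RSEM, and the setting for strand is not given in the sources used here. Of 48474 rows, 13329 had no count, and 2536 rows for further copies of a gene held 4.11% of counts. The deposited counts were normalized with TMM, filtered with filterByExpr (minimum count 10, minimum total 15) and tested with edgeR 4.0.16 (R 4.3.3) by the quasi-likelihood test on genotype and batch, two-sided, with Benjamini-Hochberg adjustment and a threshold of 0.05. Standard errors and 95% intervals come from that fit. The calls of this fit were tested on simulated data with the same library sizes, the same dispersion for every gene and no batch difference. Changes were placed only in well-expressed genes, and none smaller than 0.5 was simulated, so the calls of smaller differences were not tested. There, 100 of 100 genes changed by 0.5 on the log2 scale and 100 of 100 changed by 1 were called, with 12 of the unchanged genes among 18825. Ratios were taken from counts with 0.5 added, and 120120 arrangements of the labels within batch were enumerated. Lengths come from the principal transcript in GENCODE for GRCm38, promoter sequences from RefSeq for GRCm38.p6. Totals of 20700912 to 22263809 counts limit the precision of scarce transcripts such as Hk2. Reads carry no molecular identifiers, so limits based on 3 counts cover counting error only. Alternatives were DESeq2 1.42.0, other scalings and filters, each batch alone, an Xist covariate, copy rows left out or added up, and each mouse left out. The enzymes and gene lists were chosen with earlier results of these data known. All 10 enzymes, all tested isoenzymes and the 4 called genes with the smallest adjusted p of every other list are named, except for a few items that are not reported here.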

Additional observations from a re-analysis of the deposited data

Results flagged for a closer look

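In 17 sets of values, the 10 enzymes and the 7 isoenzyme ratios, the TG mice were searched for a mouse that lay apart from the others by Dixon's criterion. It was met 2 times, where 0.85 would be met by chance at 1 in 20 if the sets were independent and free of batch differences. They are not: they share mice and genes, the TG mice of both batches were searched together, and both mice found are among the 3 of batch A. For Hk1 the median of the WT mice was 8271 in batch A and 9007 in batch B. For Hk1, TG mouse T60303 of batch A had 5656 normalized counts and the next lowest TG mouse 7180, a gap of 0.497 of the range of the TG mice. For the log2 ratio of Pfkp to Pfkl, TG mouse T61340 of batch A had 0.56 and the next lowest 0.77, a gap of 0.487 of the range. The WT mice of batch A had 0.57, 0.59, 0.66 and 0.9, and the other TG mice of batch A had 0.94 and 1.0. The log2 difference of this ratio between genotypes, 0.06, was 0.09 without T61340 (adjusted p = 0.0987, exact permutation) and 0.03 without T60303 (adjusted p = 0.573, exact permutation), and was not called in any of the 21 fits with 1 mouse left out. Left out in turn, each of the 21 mice left Hk1 called, with log2 fold changes of -0.22 to -0.15 (adjusted p 0.00179 to 0.016, edgeR).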

How the results depend on the processing

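Pgk1 (log2 fold change -0.57 to -0.48) and Ldha (-0.70 to -0.62) were called under all 15 alternatives of tool, scaling, filter, batch, mice and copy rows, and also with any 1 mouse left out (-0.57 to -0.53 and -0.72 to -0.67). Pkm gained a call in batch B alone. Pfkl and Aldoa lost their call in batch A alone, Hk1 and Pfkp there and with scaling by library size only, and Hk2 in batch A alone, in batch B alone and without TG mice T61340 and T60303. In batch A alone, with 3 TG mice, 2195 genes in all, 18 of the related genes (58 over both batches) and 2 of the 10 enzymes were called, both of the 2 lower in TG mice. The direction of Pfkm, never called, turned with scaling by library size only (0.06) and in batch A alone (0.08), and spanned -0.05 to 0.00 with 1 mouse left out. The ratio of Pfkp to Pfkm was no longer called as a difference of medians (-0.10, adjusted p = 0.181, exact permutation) and none of the 7 ratios was in batch A alone, with adjusted p of 0.05 for Hk2 to Hk1 (0.58), Pfkl to Pfkm (-0.24), Eno1 to Eno2 (-0.30) and Ldhb to Ldha (0.31), 0.433 for Aldoc to Aldoa (0.27) and 0.486 for Pfkp to Pfkm (-0.09, exact permutation). The ratios at 0.05 had the smallest unadjusted p that batch A alone can give. DESeq2 called 8364 genes and 7 of the 10 enzymes. Interaction of genotype and batch called 1 gene without TG mouse T60303, with 1802 at an unadjusted p under 0.05. No paired analysis was possible because the mouse numbers are not shared between genotypes. Alternatives that summed retrocopy rows with their parents were chosen after seeing the data. Depth limits the scarce transcripts, Hk2 among the 10 enzymes and Hk3, Eno4, Pgam2, Slc16a3, Shmt1 and Car9 among the others named.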
